A study of Homo sapiens with 12 samples.

Results

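Skeletal muscle transcripts were followed tumor by tumor in a xenograft of mantle cell lymphoma. The 45 members are genes of the contractile apparatus of striated muscle and of its calcium handling, energy supply and transcriptional control. Every probe set annotated to 1 member alone was taken, which gave 110 of the 49293 probe sets on the array that are not Affymetrix controls. Of the members, 17 had 1 probe set and 28 had more than 1, with at most 9 (TPM1). Probe sets were kept separate throughout, and no level was set against that of another probe set.

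JEKO-1, a human mantle cell lymphoma line, was injected subcutaneously into female CB17 SCID mice aged 6 to 8 weeks. These animals lack working T and B cells but have their own skeletal muscle. The 4 groups received vehicle (control), acadesine (400 mg/kg), weekly rituximab (10 mg/kg) or the 2 agents together (combination). Acadesine is a nucleoside that activates AMP-activated protein kinase, and rituximab is an antibody against the B cell antigen CD20. The labels give acadesine as daily and the study's methods as 5 days a week. Tumors were collected at day 18 and frozen, and 3 per group, chosen by the study as representative of their cohort, were each hybridized to 1 Affymetrix HT HG-U219 array. All 12 tumors grew from 1 cell line in 1 mouse strain. The tumors are called below by group and replicate number, for example combination tumor 2. The labels do not say whether the numbers pair tumors across groups.

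Array medians lay between 4.59 and 4.66 log2 units, so that the arrays were on 1 scale. The summed level of 23 probe sets of 6 B cell genes lay between 155.8 and 161.1 in all tumors. The probes were designed for human transcripts, and RNA of the mouse host can bind to them to an unequal degree. Whether a signal came from human or from mouse RNA was not tested. In bulk tumors more cells of a type and more RNA per cell cannot be told apart.

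Striated muscle shortens when thick filaments of myosin pull on thin filaments of actin. Calcium released from the sarcoplasmic reticulum binds troponin, which moves tropomyosin along the thin filament and opens the myosin binding sites. Thin filaments are anchored at the Z-disc, and titin spans from the Z-disc to the middle of the sarcomere. Fast and slow fibers use different genes for myosin heavy and light chains and for the troponins, while MYOD1 and MYOG drive muscle differentiation. None of these fiber programs belongs to a B cell lymphoma, although single members are also used in other cells.

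The promoters of ACTA1 (skeletal alpha-actin), MYL11 (the fast skeletal regulatory light chain) and LDB3 (a Z-disc protein) are shown, as genes with wide swings between tumors or with calls between groups. The window of TPM1, the widest member, held none of the motifs searched and is not shown. RefSeq windows of GRCh38.p14, from 250 bases before the transcription start to 50 after it, were matched for 29 of the 45 members, with 38 windows, and where a gene had several windows 1 is shown. The ACTA1 window is chr1:229434045-229434344 on the minus strand, the MYL11 window chr16:30370684-30370983 on the plus strand and the LDB3 window chr10:86668261-86668560 on the plus strand, each printed 5′ to 3′ with matches to a searched motif in capitals.
ACTA1: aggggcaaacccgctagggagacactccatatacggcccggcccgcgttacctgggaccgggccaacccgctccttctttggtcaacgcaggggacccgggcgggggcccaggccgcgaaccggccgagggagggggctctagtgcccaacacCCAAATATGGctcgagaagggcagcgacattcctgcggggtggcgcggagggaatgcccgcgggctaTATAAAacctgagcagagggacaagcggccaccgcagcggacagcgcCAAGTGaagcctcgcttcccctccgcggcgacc
MYL11: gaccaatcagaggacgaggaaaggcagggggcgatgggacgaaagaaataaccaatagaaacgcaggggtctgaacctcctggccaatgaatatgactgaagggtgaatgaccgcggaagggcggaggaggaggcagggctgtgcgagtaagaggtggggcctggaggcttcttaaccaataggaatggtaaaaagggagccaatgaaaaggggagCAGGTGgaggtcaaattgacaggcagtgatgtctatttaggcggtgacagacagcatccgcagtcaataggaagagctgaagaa
LDB3: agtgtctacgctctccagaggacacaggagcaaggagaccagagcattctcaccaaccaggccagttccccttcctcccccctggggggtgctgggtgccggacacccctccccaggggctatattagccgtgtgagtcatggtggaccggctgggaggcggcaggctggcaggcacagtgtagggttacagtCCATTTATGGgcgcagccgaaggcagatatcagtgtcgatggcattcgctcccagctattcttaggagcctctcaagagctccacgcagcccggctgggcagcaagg
The motifs searched on both strands were the E-box (CANNTG), the letters TATAAA of a TATA box, the CArG box and the MEF2 site, and a match was counted also where it overlapped that of another motif. With the first transcribed base as 0, the ACTA1 window held a CArG box from -97 to -88, a TATAAA match from -30 to -25 and an E-box from 17 to 22. The MYL11 window held an E-box from -34 to -29. The LDB3 window held a CArG box from -57 to -48. A CArG box was found in 3 of the 38 member windows (7.89%), of 2 of the 29 genes since 2 of the windows are overlapping ones of LDB3, and in 1.29% of 35116 windows of the same length, and a MEF2 site in 7 (18.4%) and in 2.99%. TATAAA was found in 8 member windows (21.1%) and 11.5% of all, and the E-box in 27 (71.1%) and 68.7% of all. A match is a description of these letters and not a binding site.

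Muscle transcripts were not spread evenly over the 12 tumors. A probe set is called high in a tumor when it lay at least 1 log2 unit above its own median over the 12 tumors. In combination tumor 2, 31 of the 110 member probe sets (28.2%), of 13 genes, were high, beside 0.369% of all probe sets. Combination tumor 3 had 13 (11.8%), of 7 genes, beside 0.195% of all. Acadesine tumor 2 and rituximab tumor 2 had 5 each (4.55%), beside 0.0994% and 0.0588% of all, while combination tumor 1 had 2 (1.82%), both of LDB3, beside 0.213%. The other 7 tumors had 0. The shares of all probe sets high there were 0.0304%, 0.0507% and 0.0446% in control tumors 1, 2 and 3, 0.0183% and 0.00609% in acadesine tumors 1 and 3, and 0.0325% and 0.00406% in rituximab tumors 1 and 3. These counts are a description and were not tested.

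**Figure D1:**
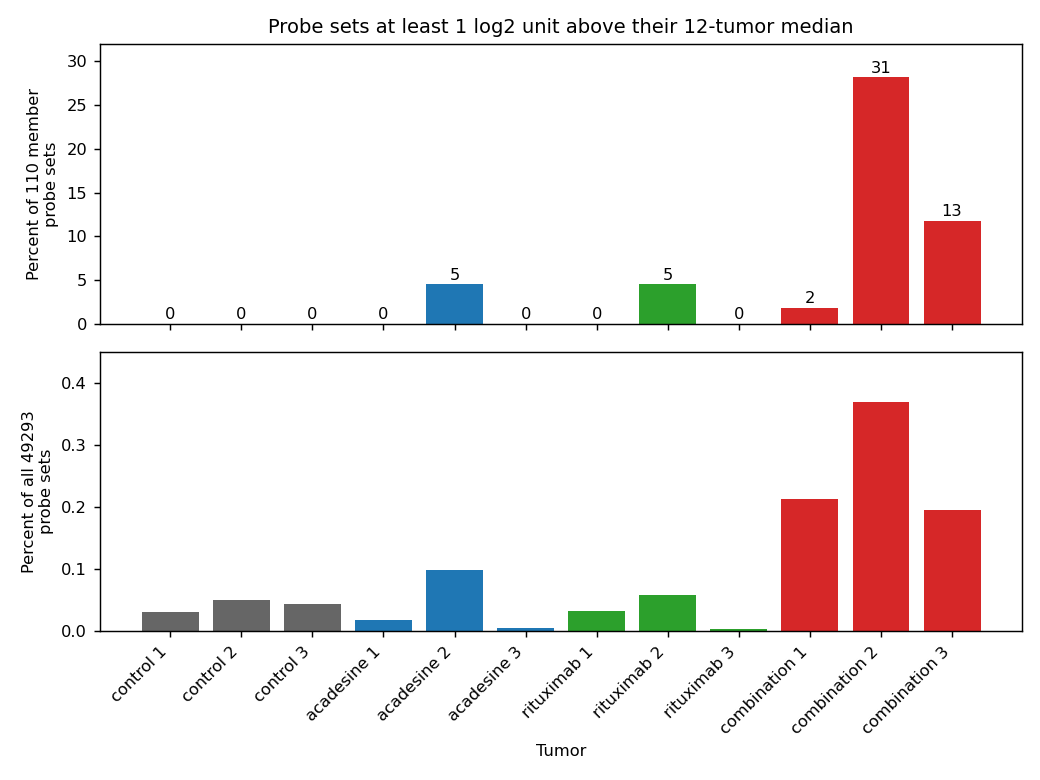
Share of probe sets at least 1 log2 unit above their median of the 12 tumors, in percent, by tumor. Upper bars are the 110 member probe sets, with the count above each bar, and lower bars are all 49293 probe sets on a smaller scale. Combination tumors 2 and 3 hold 31 and 13 high member probe sets, and the control tumors hold 0.

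The next highest tumors varied among the 31 probe sets high in combination tumor 2. Combination tumor 3 was second highest in 19 of them. Among the other 10 tumors, the highest was acadesine tumor 2 for 12 of the 31 and rituximab tumor 2 for 9. Of the 31, combination tumor 3 lay above all control tumors in 27 and acadesine tumor 2 in 25. Acadesine tumor 3 and rituximab tumor 2 did so in 21 each, and combination tumor 1 in 9. The 31 were picked for being high in combination tumor 2. The same counts were not made over all probe sets, so these are a description and were not tested. Over all 110 member probe sets, 54 (49.1%) were highest in combination tumor 2, as were 9.44% of all probe sets. The mean of the member probe sets stood 1.07 log2 units above the control mean in combination tumor 2, 0.49 in combination tumor 3, 0.26 in acadesine tumor 2 and 0.21 in rituximab tumor 2, and it was -0.04 relative to the control mean in combination tumor 1.

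Muscle genes were among the probe sets that stood out most in those tumors. When the probe sets were ordered by their distance above their own 12-tumor median, members held 13 of the top 20 places in combination tumor 2, 8 in combination tumor 3, 5 in rituximab tumor 2 and 4 in acadesine tumor 2. In each of the other 8 tumors they held 0. ACTA1 ranked highest in combination tumors 2 and 3 and in rituximab tumor 2, with a distance of 6.86 log2 units in combination tumor 2, whereas in acadesine tumor 2 it ranked 4, after 3 probe sets with no gene name.

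Thin filament genes showed the widest swings. Of their 38 probe sets, 18 (47.4%) were high in combination tumor 2, of ACTA1, TNNC2, TNNI2, TNNT3 and TPM1, and 8 (21.1%) in combination tumor 3, of all these but TNNT3. Acadesine tumor 2 and rituximab tumor 2 had 5 each (13.2%), which were all of the high member probe sets in those tumors.

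ACTA1 encodes the actin of skeletal muscle thin filaments. Its widest probe set read 6.01, 5.80 and 5.0 log2 units in control tumors 1, 2 and 3, 5.71, 8.66 and 6.71 in the acadesine tumors, 4.39, 8.71 and 4.86 in the rituximab tumors, and 4.84, 12.76 and 10.58 in the combination tumors. Tumor 2 was the highest of each treated group, and combination tumor 1 lay below all control tumors. The mean of the combination group exceeded that of the control group by 3.79 (SE 1.25), but the groups overlapped and the difference did not pass the test (limma, Benjamini-Hochberg adjusted p = 0.158). Without combination tumor 1 the difference was 6.07 (limma adjusted p = 0.00168). That tumor was the lowest of its group, so leaving it out could only raise the difference. Here and below, values without combination tumor 1 show how far 1 tumor moved the result. They are not a test of the treatment. A second ACTA1 probe set (11753504_x_at) read 10.93 in combination tumor 2 and 7.82 in combination tumor 3, with the control tumors between 4.63 and 5.35. The other (11743109_x_at) read 7.61 in combination tumor 2 and at most 5.51 in any other tumor.

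TPM1, a tropomyosin also used outside skeletal muscle, had the widest probe set of all members. It read 7.70, 7.62 and 4.94 in the control tumors, 6.49, 10.34 and 8.26 in the acadesine tumors, 4.53, 9.93 and 4.71 in the rituximab tumors, and 4.64, 14.04 and 12.18 in the combination tumors. Here the control tumors themselves differed, with control tumor 3 and combination tumor 1 near the bottom. The combination mean was 3.53 (SE 1.58) above the control mean (limma, adjusted p = 0.368), and 6.36 without combination tumor 1 (adjusted p = 0.00884). Of the 9 probe sets of TPM1, 4 were high in combination tumor 2 and the other 5 were high in no tumor. The related TPM2 varied less, and its widest probe set read 5.01, 5.40 and 4.98 in the control tumors, 4.73, 5.94 and 4.83 in the acadesine tumors, 5.48, 5.26 and 5.28 in the rituximab tumors, and 5.28, 6.23 and 5.92 in the combination tumors. None of the 4 TPM2 probe sets was high in any tumor.

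The 3 fast troponin genes were all high in combination tumor 2, and TNNC2 and TNNI2 also in combination tumor 3. TNNC2, the calcium-binding subunit of fast fibers, read 5.34, 4.99 and 4.20 in the control tumors, 4.30, 5.65 and 5.29 in the acadesine tumors, 4.50, 6.09 and 4.36 in the rituximab tumors, and 4.23, 11.16 and 8.65 in the combination tumors. Combination tumors 2 and 3 lay above all others, whereas combination tumor 1 lay at the level of the lowest control tumor (difference of means 3.17, SE 0.945, limma adjusted p = 0.107). Without combination tumor 1 it was 5.07 (adjusted p = 0.000121). All 4 TNNC2 probe sets were highest in combination tumor 2.

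TNNI2, the inhibitory subunit of fast fibers, read 4.20, 4.56 and 4.11 in the control tumors, 4.35, 5.45 and 4.75 in the acadesine tumors, 3.89, 4.77 and 4.26 in the rituximab tumors, and 4.18, 7.76 and 6.90 in the combination tumors. Its difference of 1.99 (SE 0.523) from control came close to the threshold without passing it (limma, adjusted p = 0.0573), and the groups overlapped through combination tumor 1, without which it was 3.04 (adjusted p = 5.1e-05). A second TNNI2 probe set (11757345_s_at) was nearly as high in rituximab tumor 2, at 6.30, as in combination tumor 2, at 6.66. The tropomyosin-binding subunit TNNT3 read 4.07, 4.88 and 4.14 in the control tumors, 5.19, 5.13 and 4.18 in the acadesine tumors, 4.18, 5.15 and 4.38 in the rituximab tumors, and 3.98, 7.80 and 4.72 in the combination tumors. Only combination tumor 2 stood clear of the other groups for this probe set, and the difference from control was 1.14 (SE 0.568, limma adjusted p = 0.441).

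By contrast, the slow troponins TNNC1, TNNI1 and TNNT1 had no high probe set in any tumor, nor did NEB, which encodes nebulin, a giant protein that runs along the thin filament. The highest value of any TNNT1 probe set was 4.70, in combination tumor 2.

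**Figure D2:**
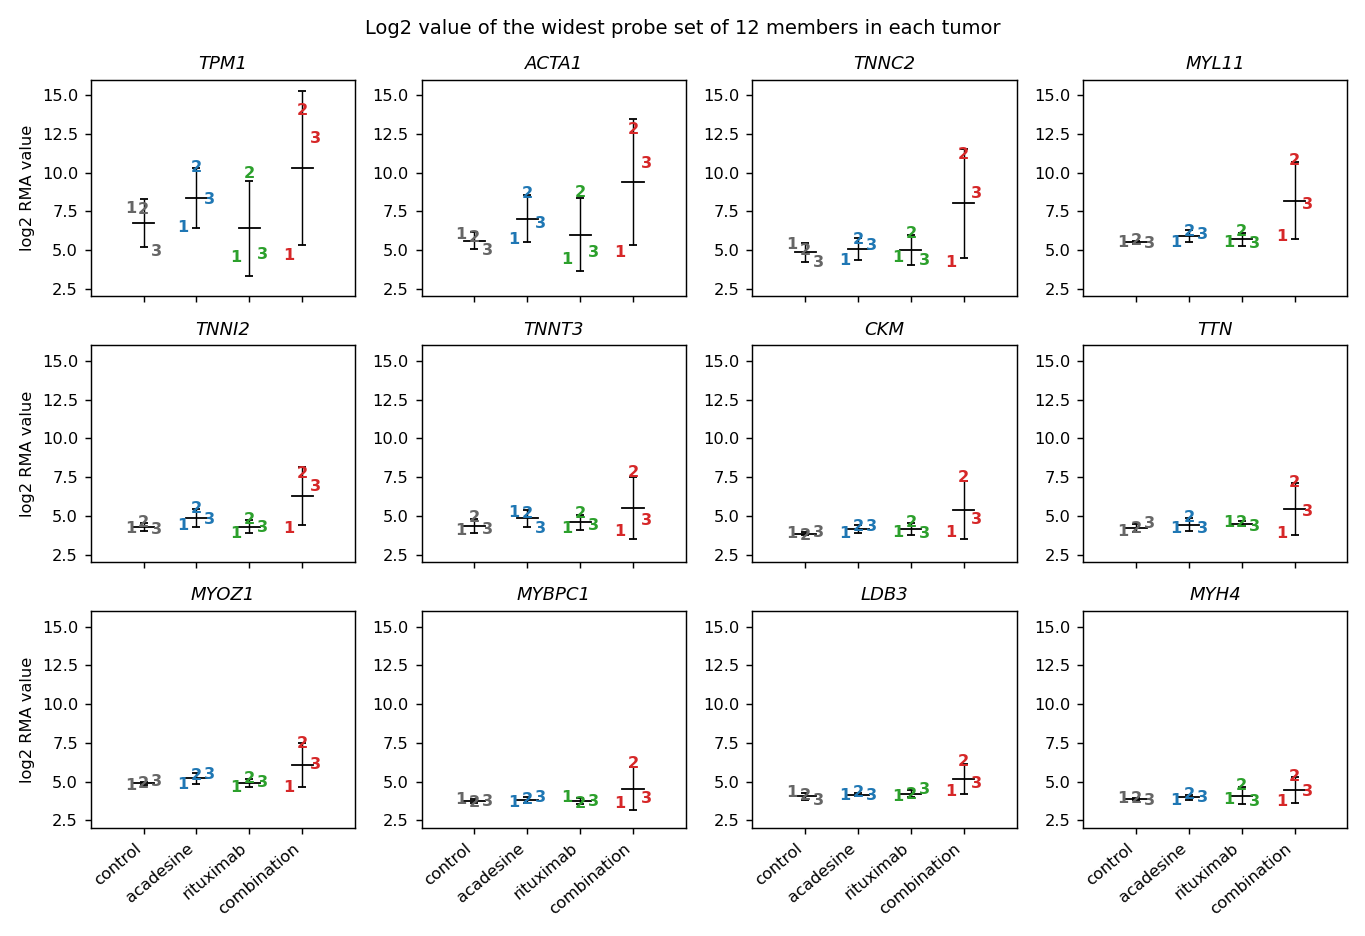
Log2 value of the widest probe set of 12 members in each tumor. Digits are tumor numbers within a group, horizontal bars are group means and vertical bars are ± 1 SD of 3 tumors. Combination tumors 2 and 3 stand above the other tumors for ACTA1, TNNC2, MYL11 and TNNI2, while combination tumor 1 lies near the control tumors.

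Among thick filament genes, 7 of 24 probe sets (29.2%) were high in combination tumor 2, of MYBPC1, MYH2, MYH4, MYL11 and TTN, and 2 (8.33%) in combination tumor 3, both of MYL11. MYL11 was the only one of them that passed the test. Its widest probe set read 5.51, 5.61 and 5.40 in the control tumors, 5.46, 6.21 and 6.03 in the acadesine tumors, 5.47, 6.20 and 5.43 in the rituximab tumors, and 5.87, 10.77 and 7.95 in the combination tumors. Each combination tumor lay above each control tumor, although combination tumor 1 did so by little and lay below acadesine tumors 2 and 3 and rituximab tumor 2. MYL11 rose by 2.69 log2 units over control in the combination group, or 6.46-fold (SE 0.645, limma adjusted p = 0.0342). The call was lost when control tumor 1 (adjusted p = 0.114), control tumor 2 (0.0567), control tumor 3 (0.128), combination tumor 2 (0.131) or combination tumor 3 (0.0738) was left out. Without combination tumor 2 the difference was 1.41. The other MYL11 probe set read 4.96, 8.95 and 6.17 in the combination tumors and 4.43 to 4.80 in the control tumors.

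The high probe sets of TTN, MYBPC1, MYH4 and MYH2 were high in combination tumor 2 alone. TTN (titin) read 4.01, 4.15 and 4.48 in the control tumors, 4.18, 4.90 and 4.20 in the acadesine tumors, 4.55, 4.59 and 4.31 in the rituximab tumors, and 3.86, 7.16 and 5.26 in the combination tumors. Combination tumors 2 and 3 were highest and combination tumor 1 lowest, while the other TTN probe set stayed between 3.85 and 4.47. MYBPC1 (slow myosin-binding protein C) read 3.87, 3.63 and 3.68 in the control tumors, 3.62, 3.84 and 3.99 in the acadesine tumors, 3.98, 3.60 and 3.70 in the rituximab tumors, and 3.58, 6.15 and 3.89 in the combination tumors. Only combination tumor 2 stood apart for MYBPC1.

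MYH4, the heavy chain of the fastest fibers in rodents, read 3.88, 3.92 and 3.79 in the control tumors, 3.78, 4.16 and 3.97 in the acadesine tumors, 3.84, 4.73 and 3.70 in the rituximab tumors, and 3.69, 5.34 and 4.37 in the combination tumors. MYH2, the heavy chain of intermediate fast fibers, read 3.94, 3.97 and 3.89 in the control tumors, 3.96, 3.74 and 4.20 in the acadesine tumors, 3.81, 4.29 and 3.97 in the rituximab tumors, and 4.05, 5.27 and 3.83 in the combination tumors. One of the 4 MYH2 probe sets was high in combination tumor 2 and none of the others was. For TTN, MYBPC1, MYH4 and MYH2 the differences between combination and control were 1.22 (SE 0.452), 0.82 (SE 0.372), 0.60 (SE 0.277) and 0.45 (SE 0.239), and none passed the test (limma adjusted p from 0.236 to 0.478). Without combination tumor 1, the lowest tumor for TTN, its difference was 2.0 (limma adjusted p = 0.00568).

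The single probe set of MYH1, another fast heavy chain, stayed between 3.50 and 3.95, and that of the slow heavy chain MYH7 between 3.67 and 4.07. MYH3, the embryonic heavy chain, read 3.77, 3.79 and 3.69 in the control tumors, 3.73, 4.33 and 3.77 in the acadesine tumors, 4.07, 3.83 and 3.43 in the rituximab tumors, and 3.92, 3.95 and 3.82 in the combination tumors. Its highest value was thus in acadesine tumor 2. Of the perinatal heavy chain MYH8, 1 probe set read 3.85, 3.58 and 3.54 in the control tumors, 4.06, 3.84 and 4.20 in the acadesine tumors, 3.59, 3.78 and 3.72 in the rituximab tumors, and 3.47, 3.62 and 3.85 in the combination tumors, and the other stayed between 3.61 and 3.95. Neither developmental form was high in any tumor.

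At the Z-disc, 5 of 22 probe sets (22.7%) were high in combination tumor 2, of LDB3 and MYOZ1, and 3 (13.6%) in combination tumor 3. LDB3, also called ZASP or Cypher, holds Z-discs together during contraction. It was the only member with a probe set high in combination tumor 1. By smaller distances, a TPM2 probe set (11740743_a_at) also read higher in all combination tumors, at 5.41, 5.465 and 5.95, than elsewhere (at most 5.35). So did an ENO3 probe set (11755602_x_at), at 8.05, 8.185 and 7.96 against at most 7.93, and neither was called. The LDB3 probe set 11736592_x_at read 5.01, 5.86 and 4.68 in the control tumors, 4.80, 5.38 and 5.60 in the acadesine tumors, 5.36, 4.84 and 5.34 in the rituximab tumors, and 6.63, 6.97 and 6.69 in the combination tumors. Probe set 11736593_a_at read 7.00, 7.76 and 6.92 in the control tumors, 6.94, 6.89 and 7.76 in the acadesine tumors, 7.18, 6.60 and 6.96 in the rituximab tumors, and 8.48, 8.94 and 8.52 in the combination tumors. In both, all 3 combination tumors lay above all 9 other tumors, with a spread among themselves smaller than their distance from the control tumors.

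These 2 probe sets rose by 1.58 (SE 0.251, limma adjusted p = 0.00181) and 1.42 (SE 0.229, adjusted p = 0.00202) in the combination group against control. Against acadesine alone they rose by 1.50 and 1.45 (adjusted p = 0.00391 and 0.00301), and against rituximab alone by 1.58 and 1.73 (adjusted p = 0.00155 and 0.000385). Both calls held in each of the 3 comparisons when any of the 12 tumors was left out. Of the settings tried on single probe sets, they were lost only when acadesine tumor 2, rituximab tumor 2 and combination tumors 2 and 3 were left out together, which left combination tumor 1 as the only one of its group. The differences from control were then 1.44 (adjusted p = 0.187) and 1.25 (adjusted p = 0.177). Probe set 11726137_a_at read 4.81, 5.54 and 5.12 in the control tumors, 5.01, 5.35 and 5.49 in the acadesine tumors, 5.18, 4.95 and 5.20 in the rituximab tumors, and 5.83, 6.33 and 6.07 in the combination tumors. It rose by 0.92 over control (SE 0.199, limma adjusted p = 0.0187), by 0.79 over acadesine (adjusted p = 0.0482) and by 0.97 over rituximab (adjusted p = 0.0129). The rise over control was lost without control tumor 1 (adjusted p = 0.123), control tumor 3 (0.0812), combination tumor 2 (0.143) or combination tumor 3 (0.0526), and that over rituximab without rituximab tumor 2 (0.109) or combination tumor 2 (0.107). The rise over acadesine was lost in 9 of the 12 cases, all but those without control tumor 1, control tumor 2 or acadesine tumor 3, with adjusted p up to 0.258.

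Probe set 11749626_a_at had the other pattern: 4.27, 4.08 and 3.79 in the control tumors, 4.13, 4.28 and 4.08 in the acadesine tumors, 4.03, 4.14 and 4.51 in the rituximab tumors, and 4.36, 6.27 and 4.86 in the combination tumors. Combination tumor 2 stood apart there and combination tumor 1 lay within the range of the single-agent groups (difference from control 1.12, SE 0.292, limma adjusted p = 0.0552, and 1.52 without combination tumor 1, adjusted p = 0.00674). The remaining 2 LDB3 probe sets were high in no tumor. The probe sets of LDB3 therefore did not share 1 pattern, and which transcripts each of them reads was not tested.

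**Figure D3:**
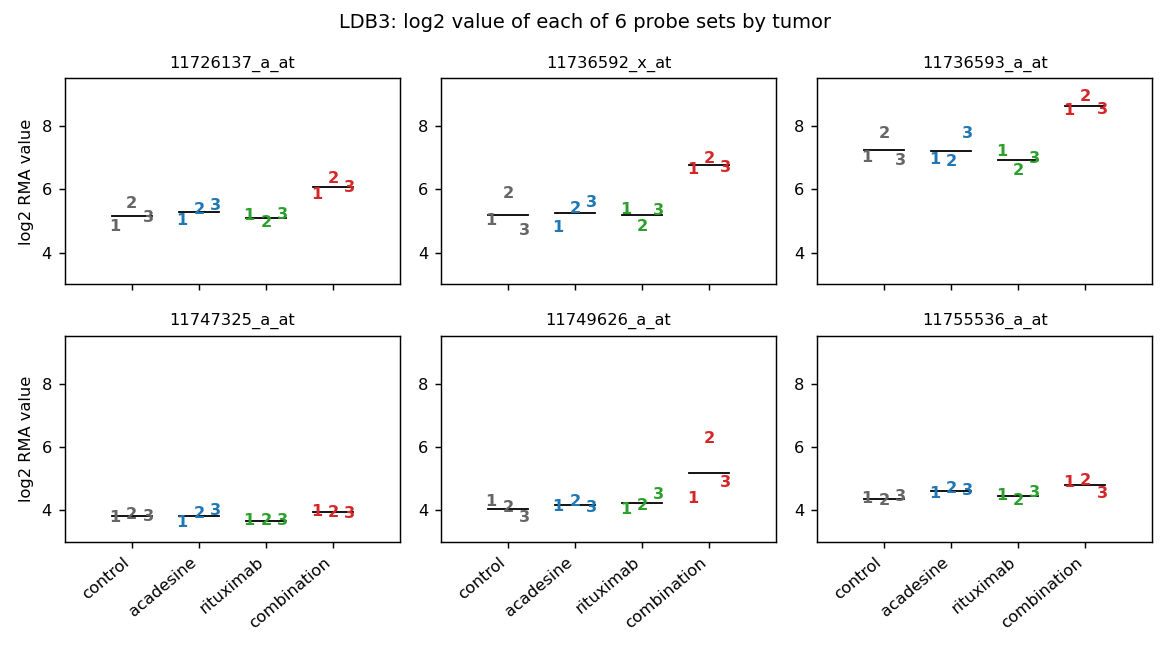
Log2 value of each of the 6 LDB3 probe sets in each tumor. Digits are tumor numbers within a group and horizontal bars are group means of 3 tumors. All 3 combination tumors lie above the other 9 for 11736592_x_at and 11736593_a_at, whereas combination tumor 2 alone stands far apart for 11749626_a_at.

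MYOZ1 (calsarcin-2, a Z-disc protein of fast fibers) read 4.77, 4.90 and 4.99 in the control tumors, 4.80, 5.37 and 5.45 in the acadesine tumors, 4.63, 5.18 and 4.92 in the rituximab tumors, and 4.60, 7.45 and 6.10 in the combination tumors. Combination tumors 2 and 3 were highest and combination tumor 1 lowest (difference from control 1.17, SE 0.401, limma adjusted p = 0.185, and 1.89 without combination tumor 1, adjusted p = 0.00252). ACTN2 and ACTN3 (alpha-actinins), DES (desmin, the intermediate filament protein of muscle), MYOT (myotilin), MYOZ2 and TCAP (telethonin) had no high probe set in any tumor. The values of DES lay between 3.92 and 5.54 over its 2 probe sets.

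Genes of excitation and calcium handling had no high probe set in any tumor, of 15 measured. Their summed level lay between 63.7 and 65.5 in the control tumors and between 63.8 and 66.1 in the combination tumors. All but that of STAC3 stayed under 5, where a rise could go unseen. They include ATP2A1 (the calcium pump of fast fibers), RYR1 (the calcium release channel), CACNA1S (its voltage sensor), CASQ1 (calsequestrin) and TRDN (triadin). ATP2A1 read 4.02, 4.94 and 4.24 in the combination tumors and 4.02 to 4.27 in the control tumors. It read 4.55 in acadesine tumor 2 and 4.37 in rituximab tumor 2. SLN (sarcolipin, an inhibitor of the calcium pump) read 4.75, 4.84 and 4.44 in the control tumors, 4.67, 4.61 and 4.73 in the acadesine tumors, 4.73, 4.86 and 4.88 in the rituximab tumors, and 4.88, 4.76 and 4.81 in the combination tumors. For CAV3 (muscle caveolin) 1 probe set read 3.81, 4.09 and 3.98 in the control tumors, 4.30, 4.06 and 4.02 in the acadesine tumors, 4.20, 4.32 and 3.99 in the rituximab tumors, and 3.97, 4.60 and 4.12 in the combination tumors, and the other stayed between 3.50 and 4.27. The groups overlapped for both genes.

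STAC3, an adaptor of the voltage sensor in muscle, moved the other way. It read 9.33, 9.16 and 9.19 in the control tumors, 9.42, 9.15 and 8.88 in the acadesine tumors, 9.11, 9.23 and 9.10 in the rituximab tumors, and 8.36, 8.88 and 8.71 in the combination tumors. STAC3 fell by 0.58 log2 units in the combination group against control (SE 0.139, limma adjusted p = 0.0344), and the 2 groups did not overlap. It was the only 1 of the 110 member probe sets called lower, beside 0.874% of all probe sets. In 4 member probe sets all combination tumors lay below all control tumors, beside 8.8% of all. Neither trait was thus more frequent among members than a single call or the array share. Combination tumor 1 was the lowest of the 12 tumors and combination tumor 2 was level with acadesine tumor 3, so that the order was not that of the sarcomere genes. The call was lost without control tumor 1 (adjusted p = 0.151), control tumor 3 (0.1), combination tumor 1 (0.213) or combination tumor 3 (0.0676).

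Of the genes of energy supply, CKM (muscle creatine kinase) had the only high probe set. It read 3.84, 3.72 and 3.92 in the control tumors, 3.86, 4.33 and 4.30 in the acadesine tumors, 3.92, 4.58 and 3.88 in the rituximab tumors, and 3.92, 7.50 and 4.76 in the combination tumors. Combination tumor 2 stood apart, and combination tumor 1 lay at the level of control tumor 3 (difference from control 1.57, SE 0.497, limma adjusted p = 0.138, and 2.30 without combination tumor 1, adjusted p = 0.0118). The other CKM probe set reached 4.84 in combination tumor 2. PYGM (muscle glycogen phosphorylase) read 5.90, 5.77 and 5.61 in the control tumors, 5.22, 5.77 and 5.16 in the acadesine tumors, 5.05, 5.58 and 5.31 in the rituximab tumors, and 5.0, 6.39 and 5.98 in the combination tumors, with a difference of 0.03 (SE 0.258) between combination and control whose sign changed under other settings. MB (myoglobin) and ENO3 (the muscle enolase) had no high probe set in any tumor.

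The myogenic regulators stayed low in every tumor. MYOD1 read 3.83, 3.60 and 3.75 in the control tumors, 4.06, 3.63 and 3.80 in the acadesine tumors, 3.73, 3.67 and 3.64 in the rituximab tumors, and 3.58, 3.74 and 3.89 in the combination tumors. MYOG read 3.80, 3.80 and 3.81 in the control tumors, 4.13, 3.94 and 4.06 in the acadesine tumors, 3.83, 3.88 and 4.18 in the rituximab tumors, and 3.90, 3.87 and 3.83 in the combination tumors. Combination tumor 2 was not the highest for either gene.

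Of 28 probe sets of 12 fast-fiber genes, 15 were high in combination tumor 2, and of 13 probe sets of 7 slow-fiber genes 0 were. The 15 came from 6 of the fast-fiber genes: MYH2, MYH4, MYL11, TNNC2, TNNI2 and TNNT3. The fast-fiber genes MYH1, MYL1, MYBPC2, ACTN3, ATP2A1 and CASQ1 had no high probe set in that tumor. The slow list did not hold MYBPC1, of which 2 probe sets were high there, nor the probe set shared by MYH6 and MYH7, which read 7.09 there, so the 0 depends on which genes were listed. Of the 79 member probe sets high in no tumor, 67 had all 12 values under 5, a range in which 49.6% of all probe sets on the array stayed in all tumors. Of the 28 members with more than 1 probe set, 5 had all probe sets high in some tumor, 6 some of them and 17 none. Probe sets with the suffixes _s_at and _x_at, which can share probes with other transcripts, made up 17 of the 31 high in combination tumor 2. They were high in 17 of 40 cases (42.5%) and the probe sets without that mark in 14 of 70 (20%). How much of the signal related genes share was not tested.

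A second list of 64 muscle genes, of which 61 were measured by 127 probe sets, included MYF6 (a myogenic regulator), DMD (dystrophin), AMPD1 (muscle AMP deaminase) and EEF1A2 (a muscle and neuron elongation factor). None of its probe sets was high in any tumor, none passed the test in any comparison with control or in combination against acadesine, and 1 (EEF1A2) was called higher, by 0.88, in combination against rituximab. The list's median difference between combination and control was 0.05. Its summed level lay between 527.9 and 533.6 in the control tumors and between 537.0 and 540.9 in the combination tumors. It lay between 533.1 and 542.7 in the acadesine tumors, a range that holds that of the combination, and between 524.3 and 536.7 in the rituximab tumors. The mean over its probe sets lay between 4.13 (rituximab tumor 3) and 4.27 (acadesine tumor 2), below the array medians, so a rise could go unseen. How well these probe sets read mouse RNA was not tested.

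Markers of other host tissues were read in the same tumors. Of 29 probe sets of 8 fibroblast genes, 1 (COL1A1) was high in combination tumors 2 and 3, at 6.24 in each, with control tumor 2 at 6.07. A COL3A1 probe set rose by 0.72 in the combination group against control and by 0.70 against rituximab, and COL1A1 rose by 1.46 against rituximab. The summed fibroblast level lay between 112.9 and 117.4 in the control tumors, 113.6 and 115.5 in the acadesine tumors, 111.3 and 113.3 in the rituximab tumors, and 113.9 and 117.8 in the combination tumors. For heart muscle, 4 of 6 genes were measured, and only NPPA, the atrial natriuretic peptide gene, was high. It was high in all 3 combination tumors and rose by 1.71 against control. NPPA read 10.75 in combination tumor 1, 10.57 in combination tumor 3 and 9.91 in acadesine tumor 3, so it did not follow the order of the muscle members. Which cells its signal came from was not tested. Of 27 smooth muscle probe sets 1 was high in an acadesine tumor, and the adipocyte, keratinocyte, endothelial, macrophage and nerve lists had 0 high in any tumor. The part of these cells in the muscle signal was not tested.

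Between groups, few muscle probe sets passed the test. A limma model was fitted over all 49293 probe sets, and a call required a Benjamini-Hochberg adjusted p under 0.05. In combination against control, 4 member probe sets rose (3 of LDB3 and 1 of MYL11) and 1 fell (STAC3), beside 0.68% of all probe sets called higher and 0.874% called lower. At an unadjusted p under 0.05 there were 38 member probe sets and 5874 probe sets in all. The median difference over the member probe sets was 0.15, and over all probe sets 0.00, with 92 of the 110 positive and 18 negative. A difference of at least 1 log2 unit was seen in 21 member probe sets (19.1%) and in 0.27% of all probe sets. Yet in only 17 member probe sets (15.5%) did all 3 combination tumors lie above all 3 control tumors, beside 8.14% of all.

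For acadesine alone against control, 0 member probe sets passed in either direction, as did 0% of all probe sets called higher and 0% called lower. At an unadjusted p under 0.05 there were 4 member probe sets and 3851 probe sets in all. The median member difference was 0.08, and 2 member probe sets had a difference of at least 1, beside 0.0142% of all. For rituximab alone against control, again 0 member probe sets passed, with 0% of all probe sets called higher and 0% called lower, and 2 member probe sets and 1926 probe sets in all had an unadjusted p under 0.05. The median member difference was 0.03, and 0 member probe sets differed by at least 1, beside 0.0122% of all. These comparisons share their control tumors.

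Against acadesine alone, the combination had 3 member probe sets called higher, beside 0.783% of all, and 0 lower, beside 0.627%. Against rituximab alone it had 3 higher, beside 0.852% of all, and 0 lower, beside 0.742%. In both cases the 3 were the same LDB3 probe sets. The median standard error of a member difference, as moderated by eBayes, was 0.152 and the highest was 1.58, for TPM1. The spread between tumors of 1 group was larger for that probe set. Its SD was 1.57 in the control, 1.93 in the acadesine, 3.065 in the rituximab and 4.98 in the combination group.

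**Figure D4:**
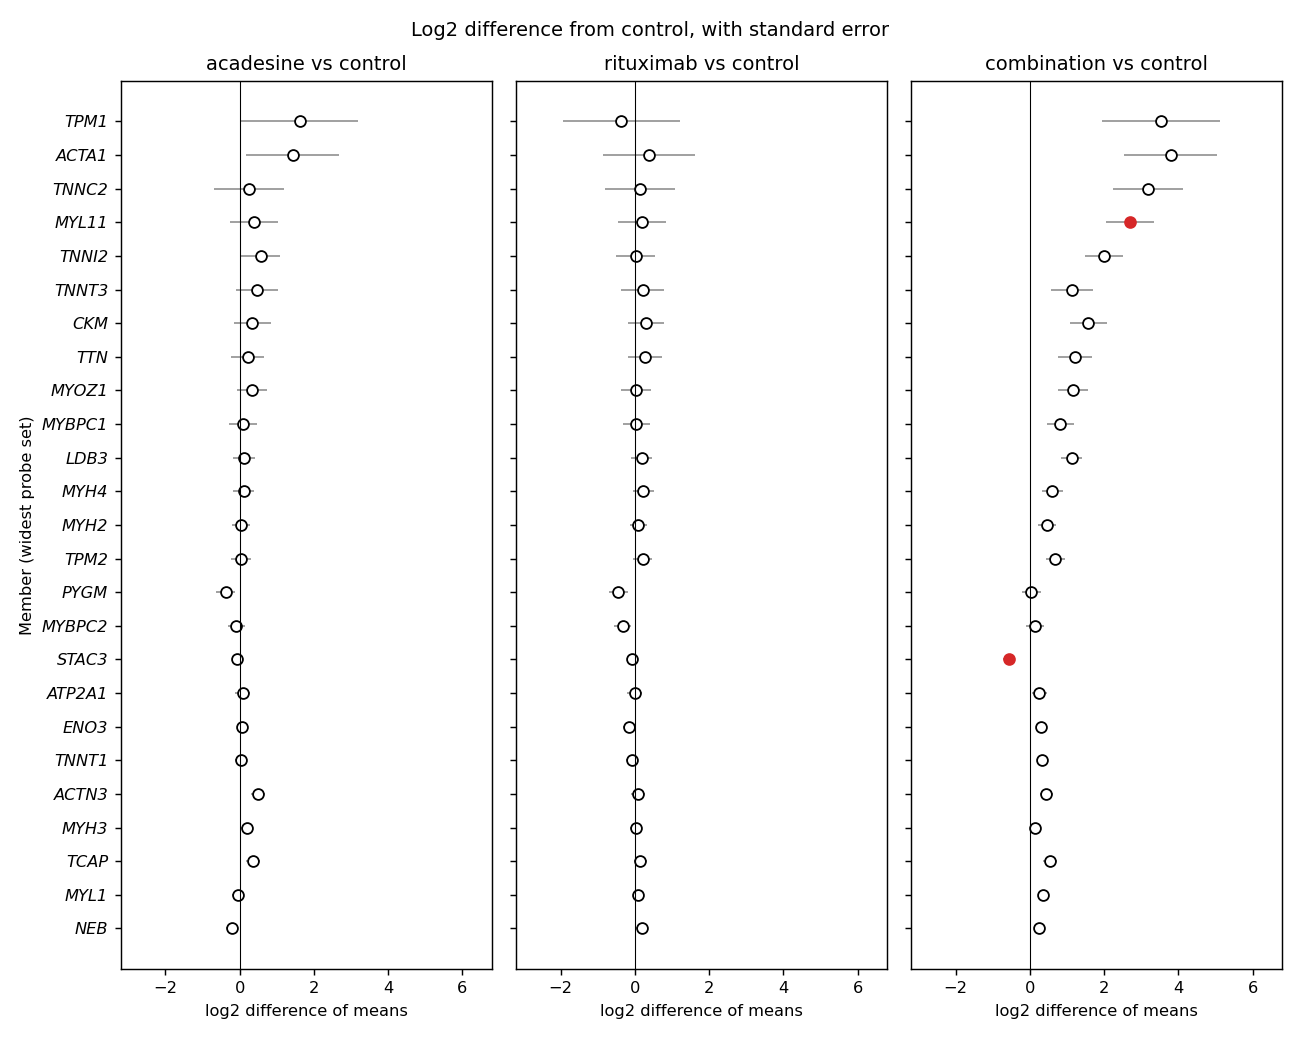
Log2 difference between group means, treated minus control, for the widest probe set of 25 members in the 3 comparisons with control. Points are differences, horizontal bars are standard errors of the limma model and filled points passed the test. In combination against control MYL11 lies at 2.69 and STAC3 at -0.58, both filled, while ACTA1 at 3.79 and TPM1 at 3.53 have wide bars and are not filled.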

How the data were processed

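RNA of 12 JEKO-1 xenograft tumors was measured on 1 Affymetrix HT HG-U219 array each. The deposited values are log2 expression that the authors made by RMA, which corrects background, quantile normalizes the arrays and summarizes the probes of each probe set. No version of that software is given in the sources used here, and no scanner file was used. Quantile normalization gives all arrays 1 distribution, so that values are relative within an array.

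Probe sets were named from the platform annotation. After 93 Affymetrix controls were left out, 45253 probe sets named 1 gene, 1327 several and 2713 none, and 2 probe sets that a member shared with another gene were not used. No probe set was filtered on its level. Groups came from the labels, which call the 3 tumors of a group biological replicates.

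A linear model with group as the only term was fitted over all probe sets in R 4.3.3 (limma 3.58.1, eBayes with an intensity trend), followed by Benjamini-Hochberg adjustment across the whole array. It was tested on simulated data. The study's methods name Rank Products at an FDR of 0.2 and a fold change of 1.4, and those limits were applied to limma as an alternative. Tables and figures were made in Python 3.11.15 with pandas 2.3.3 and matplotlib 3.10.9.

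Values in every tumor are given for members with a call, for the 15 members with the widest probe set and for MYOD1, MYOG, CAV3, MYH3, MYH8, STAC3 and SLN. Members, lists and tests were chosen with earlier results of these data known. Alternatives covered the eBayes settings, array weights, the samples fitted, scaling, dim probe sets, the probe sets of a gene, the limits of a call, a replicate block and each tumor left out.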

Additional observations from a re-analysis of the deposited data

How the results depend on the processing

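The count of member probe sets called in combination against control was 5. It was 3 with no intensity trend, 1 with the mean over the probe sets of a gene, 17 with the methods' limits and 13 with a replicate block. Whether replicate numbers pair the tumors was not settled. As deviations from group means, the 18 pairs of the same number correlated between -0.13 and 0.15. Their median was 0.06, beside -0.01 for different numbers, and 7 tumors correlated best with one of their own number. With 1 tumor left out the count against control ranged from 2 to 23, and the 23 came without combination tumor 1. Against acadesine (3 called) it was 1 with 1 probe set a gene, 1 with the mean over probe sets and 9 with the methods' limits, and 2 to 15 with 1 tumor left out, the 15 without combination tumor 1. Against rituximab (3 called) it was 1 with the mean over probe sets, 7 with a replicate block, 14 with the methods' limits and 2 to 23 with 1 tumor left out, the 23 without combination tumor 1. With dim probe sets left out, the median member difference was 0.187 for acadesine against control, 0.9694 for combination against control, 0.713 against acadesine and 0.9388 against rituximab, and that filter keeps members that are high in some tumors. An alternative chosen after seeing the data left out acadesine tumor 2, rituximab tumor 2 and combination tumors 2 and 3, so that 1 combination tumor remained, assumed to vary like the other groups. It gave 0 calls in each of these 3 comparisons, with medians of -0.0124, -0.043 and -0.014 against control, acadesine and rituximab. The tumors left out were those with the most high member probe sets. Differences from control were then those of combination tumor 1 alone. They had the opposite sign for TPM1 (-2.11), ACTA1 (-0.76), TNNC2 (-0.62), TNNI2 (-0.11), TNNT3 (-0.38), TTN (-0.35), MYOZ1 (-0.28), MYBPC1 (-0.14), MYH4 (-0.17) and PYGM (-0.76). These changes of sign followed from the choice of tumors and are not a test. With 1 tumor left out, the difference of TNNT3 ranged from -0.009 (without combination tumor 2) to 1.90 and that of PYGM from -0.27 (without combination tumor 2) to 0.43, both highest without combination tumor 1. PYGM also turned to -0.0513 with array weights, -0.0455 without control tumor 3 and -0.0626 without combination tumor 3. The STAC3 call (adjusted p = 0.0957) and that of LDB3 11726137_a_at over acadesine (0.0654) were lost with no trend. The MYL11 call was also lost with no trend (adjusted p = 0.135), robust eBayes (0.338), array weights (0.0657) and only the 2 groups fitted (0.0749). Of 595 values of single probe sets under alternatives, 516 kept their direction and side of the threshold, 43 lost the call, 21 gained one and 15 changed sign. The 15 include the changes of sign that followed from the choice of tumors. The cause of the other shifts was not tested. With 3 tumors a group and 1 array a tumor, the number of arrays limits the precision, and dim values near the array's floor understate differences.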

Other observations

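Some probe sets of other genes, named here after their values were seen, stood out in the tumors rich in muscle transcripts. A PDLIM5 probe set, of a gene whose protein binds the Z-disc in muscle, read 4.09, 10.18 and 5.60 in combination tumors 1, 2 and 3 and at most 4.44 in the other 9 tumors. A probe set shared by the slow and cardiac heavy chains MYH6 and MYH7, left out of the members, read 7.09 in combination tumor 2 and at most 3.99 in any other tumor. A NFIX probe set, of a transcription factor, read 6.99, 10.16 and 7.56 in the combination tumors, and in the other 9 tumors its highest value was 7.80, in acadesine tumor 2. The IL7R probe set 11733187_a_at had another pattern and read 6.85, 8.04 and 7.07 in the combination tumors and at most 5.01 elsewhere. One of 3 CA3 probe sets, of a carbonic anhydrase abundant in muscle and fat, read 7.08 in combination tumor 2, but also 6.08 in rituximab tumor 1, in which no member probe set was high.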
